A study of Mus musculus with 36 samples.

Results

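The genes described here are the protein-coding members of the UDP-glucuronosyltransferase (Ugt) and cytosolic sulfotransferase (Sult) families of the mouse. They were taken by name, as every protein-coding row of the gene table whose symbol starts with Ugt or Sult followed by a digit. This gave 43 members, 22 Ugt and 21 Sult genes, out of 56748 genes in the table, of which 21970 are protein coding. Another 6 rows with names of this form are annotated as pseudogenes and were not included. The rule uses no measured value.

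RNA sequencing was run on epididymal visceral white adipose tissue (visWAT) and liver of the same 18 male mice, giving 36 libraries. The mice had both Mlkl alleles flanked by loxP sites on a C57BL/6J background. Those called MlklAdi-KO also carried an Adipo-Cre transgene, which is active in mature adipocytes, and their littermates without Cre are called WT. From the age of 16 weeks they ate chow (NCD, the normal diet) or fat-rich food (HFD, the high-fat diet) over 16 weeks, with 4 mice of each genotype on NCD and 5 of each genotype on HFD. MLKL is the protein that ruptures the plasma membrane in necroptosis. Whole tissue was sequenced, so the libraries also hold RNA of cells in which the Cre is not active. The liver was not a target of the deletion. In such bulk tissue, fewer cells of a type and less RNA per cell cannot be told apart.

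UGT enzymes sit in the membrane of the endoplasmic reticulum and join glucuronic acid from UDP-glucuronate to bilirubin, steroids, bile acids, fatty acids and drugs. SULT enzymes are soluble and transfer sulfate from the donor PAPS to phenols, catecholamines, thyroid hormone, steroids and bile acids. Both reactions make their substrates more soluble in water and ready for export, and the liver is the main site of both. Adipose tissue is known for SULT1E1, which inactivates oestrogens.

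The members lie in clusters. On the GRCm39 build used by the files, 9 Ugt1a genes overlap on the plus strand of chromosome 1 (87983110 to 88147724), 13 members lie on chromosome 5 (87037626 to 87739461), among them the Ugt2 genes and Sult1b1, Sult1d1 and Sult1e1, and 10 lie on chromosome 7, with Sult1a1 and the Sult2a genes. The Ugt1a genes are 9 alternative first exons of 900 to 975 bases, each of which is spliced to the same exon 2, which starts at base 88142766. The first exon codes for the part of the enzyme that binds the substrate and the shared exons for the part that binds UDP-glucuronate. The junctions of the 5 Ugt1a genes that the results below turn on are given here 5′ to 3′, to show what separates one Ugt1a mRNA from another. Small letters are the last 30 bases of the first exon and capitals the first 30 bases of the shared exon 2, both read from GRCm39.
Ugt1a9: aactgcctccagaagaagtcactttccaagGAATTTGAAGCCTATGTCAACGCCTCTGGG
Ugt1a7c: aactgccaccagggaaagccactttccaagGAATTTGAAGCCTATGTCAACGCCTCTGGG
Ugt1a6b: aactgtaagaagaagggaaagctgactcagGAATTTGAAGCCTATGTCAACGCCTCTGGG
Ugt1a5: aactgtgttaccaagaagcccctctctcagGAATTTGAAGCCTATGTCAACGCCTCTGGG
Ugt1a1: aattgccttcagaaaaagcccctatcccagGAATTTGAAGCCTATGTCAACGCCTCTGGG
The letters after the junction are the same in all 5, while those before it differ. Over this window Ugt1a6a has the letters of Ugt1a6b, and Ugt1a2 those of Ugt1a5. The whole first exons of Ugt1a6a and Ugt1a6b are 94.9% identical, those of Ugt1a9 and Ugt1a5 54.9%.

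Levels are given in FPKM, in which reads are divided by gene length and library depth. The shared exons limit what such values can say of the Ugt1a genes. Of the exon bases of each gene, the share that no other annotated gene overlaps was 11.6% for Ugt1a1, 28.4% for Ugt1a5, 29.1% for Ugt1a9, 30.3% for Ugt1a6b and 22.8% for Ugt1a7c. Ugt1a8, which holds the same exons 2 to 5, was at most 0.137 FPKM in any library, so reads on the shared exons were not credited to every gene that holds them. The gene length behind each FPKM still includes those exons. The bases that belong to one gene alone are as many as those of its first exon for Ugt1a5 (919) and Ugt1a9 (951), fewer for Ugt1a1 (375), and more for Ugt1a6a (2430), which has further exon sequence of its own. How reads on the shared exons were handled is not given in the sources used here beyond that, so a Ugt1a level is compared below between libraries and not with the level of another gene. Of the other members, Ugt2b38 (24.2%) and Ugt2b5 (15.7%) shared the largest parts of their 100-base windows with another gene among those above 1 FPKM, so their values are less certain.

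**Figure D1:**
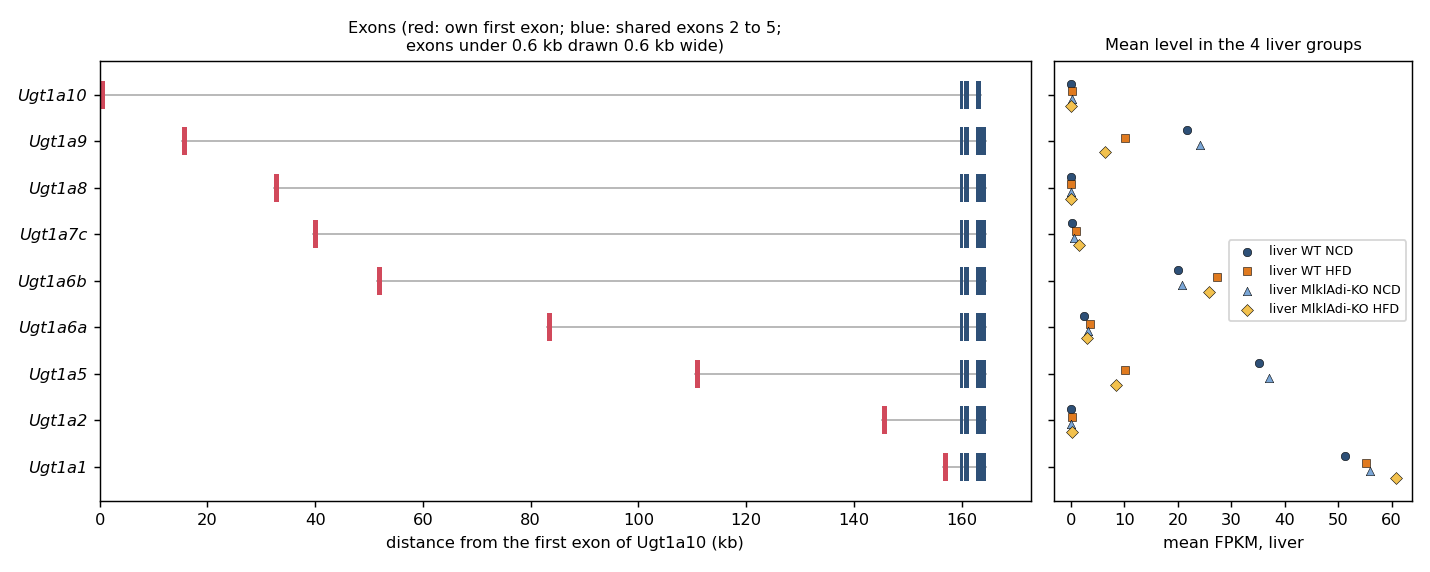
Exon map of the Ugt1a genes (left, horizontal axis in kilobases from the start of the first exon of Ugt1a10) and the mean FPKM of each gene in the 4 liver groups (right). Every first exon joins the same exons at the right end of the map, Ugt1a1 lies nearest to them, and Ugt1a5 and Ugt1a9 have the lower liver values on HFD.

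The 250 bases upstream of the RefSeq start are given for 3 of these first exons, because Ugt1a5 fell in liver on HFD in both genotypes and Ugt1a9 in MlklAdi-KO mice, while Ugt1a1, which uses the same shared exons, was not called (values below). They come from RefSeq's promoter table (GRCm38.p6) and were each found once on the plus strand of chromosome 1 in GRCm39, at chr1:88093484-88093733 (Ugt1a5), chr1:87998251-87998500 (Ugt1a9) and chr1:88139431-88139680 (Ugt1a1). Capitals mark GTTAAT, part of the HNF1 binding motif, on either strand (ATTAAC as printed).
Ugt1a5: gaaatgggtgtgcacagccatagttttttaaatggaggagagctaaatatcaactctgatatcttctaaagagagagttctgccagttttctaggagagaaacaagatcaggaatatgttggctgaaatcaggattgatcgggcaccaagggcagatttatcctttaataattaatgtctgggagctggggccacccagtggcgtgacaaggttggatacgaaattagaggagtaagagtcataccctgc
Ugt1a9: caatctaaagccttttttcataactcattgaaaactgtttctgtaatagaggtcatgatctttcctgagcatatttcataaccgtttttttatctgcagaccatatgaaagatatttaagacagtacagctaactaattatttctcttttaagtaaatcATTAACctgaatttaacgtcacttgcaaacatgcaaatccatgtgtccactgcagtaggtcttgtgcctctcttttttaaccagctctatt
Ugt1a1: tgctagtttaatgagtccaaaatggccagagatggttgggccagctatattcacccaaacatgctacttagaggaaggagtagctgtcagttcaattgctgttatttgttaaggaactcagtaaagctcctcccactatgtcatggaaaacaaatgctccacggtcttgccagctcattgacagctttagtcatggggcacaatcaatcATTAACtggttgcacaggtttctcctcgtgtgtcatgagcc
GTTAAT stood 91 to 86 bases before the start of Ugt1a9 and 41 to 36 bases before that of Ugt1a1, and its letters are not in the window of Ugt1a5. It was present on either strand in 6.43% of the 32851 promoters of the table and in those of 13 of the 37 members with an entry. AGGTCA, the core of many nuclear receptor motifs, was in 14% of all promoters and in those of 10 members, among them Ugt1a9, Ugt2b5, Ugt2b35, Ugt2b36, Ugt2b37 and Ugt2b38. GCGTG, the core of the aryl hydrocarbon receptor motif, was in 28.2% and in 6 members, Ugt1a5 among them at 49 to 45 bases before its start. GGGTCA, another nuclear receptor core, was in 11.6% and in 4 members, and TATAAA in 12.4% and in 9 members. These are matches of letters and not known binding sites.

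Each library had between 20875463 and 30322171 reads on genes. Mlkl was lower in the KO adipose tissue (1.96 to 2.72 FPKM over its 9 libraries) than in the WT libraries (3.91 to 6.28 in 8 of them), but 2.29 FPKM, a value within the range of the KO libraries, was measured in the library labelled WT NCD mouse 182. In liver the 4 groups overlapped (1.62 to 4.19). Some libraries carried markers of other cells or stood apart. The visWAT libraries of WT NCD mouse 183, WT NCD mouse 182 and KO NCD mouse 197 held seminal vesicle and epididymis transcripts (summed FPKM of the markers 238510, 318 and 79.0). The visWAT of KO HFD mouse 156 had a summed hepatocyte marker level of 722, which was 1.43% of that in its liver. Smaller rises of this sum were seen in the visWAT of WT HFD mouse 164 (97.6, others of its group 0.609 to 7.84) and KO NCD mouse 199 (69.9, others 9.03 to 20.9). The liver of WT NCD mouse 182 had more macrophage (112 against 26.8 to 34.1 in the other 3 livers), fibroblast (33.7 against 4.31 to 5.17) and cholangiocyte (19.4 against 4.47 to 5.64) marker RNA. Its summed hepatocyte markers were 60941, against 52063 to 59953 in the other 3. Summed cholangiocyte markers were also high in the livers of WT HFD mouse 155 (44.6 against 1.73 to 2.747) and KO NCD mouse 166 (20.9 against 3.45 to 5.58). Most of these 2 sums was Krt19 (36.2 and 15.2 FPKM), which is also in the mesothelium list. Summed mesothelium markers were likewise high in these livers (37.3 and 16.5). Sox9, another cholangiocyte marker, was not high in either (1.26 and 1.27). For the diet differences of members that turn on 1 of these libraries, values without it stand beside the result.

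Liver expressed most of the members and adipose tissue few. A mean of at least 1 FPKM in at least one of the 8 groups was reached by 24 members, 23 of them in liver and 7 in visWAT. In the livers of WT mice on NCD, 22 members reached 1 FPKM, 16 reached 10 and 8 reached 100. In their visWAT, the numbers were 5, 2 and 1. The FPKM of all 43 members summed to 2241 in WT NCD liver and 145 in WT NCD visWAT, values that are not on one scale of reads. Ugt2b5, a member of the UGT2B group that acts on steroids and drugs, made up 23.1% of the liver sum. In adipose tissue Sult1a1, a phenol sulfotransferase, made up 73.8% and Sult1e1 20.4%.

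**Figure D2:**
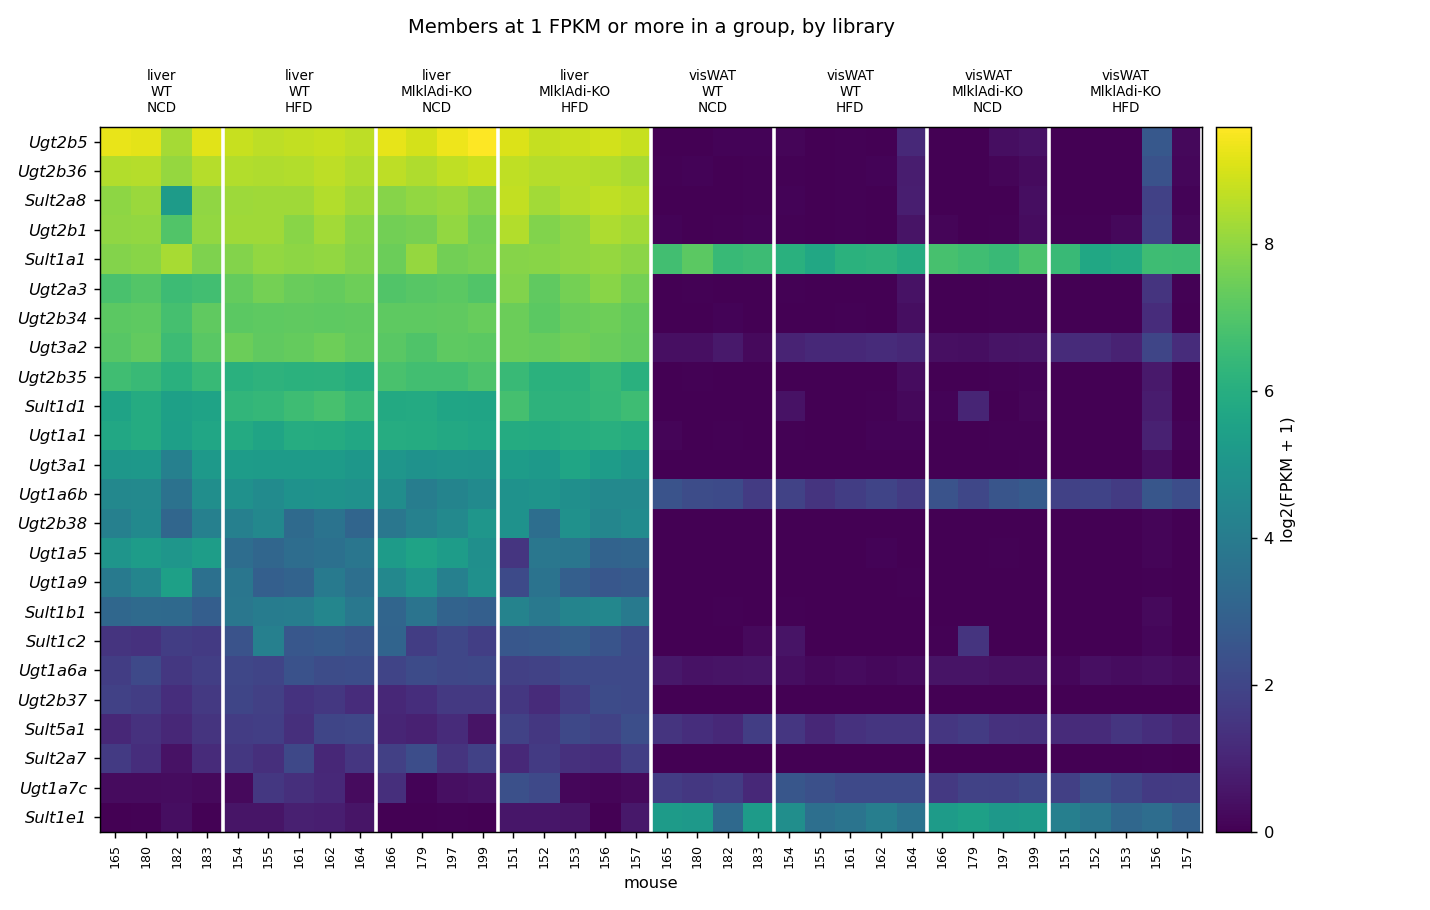
Heat map of log2(FPKM + 1) for the 24 members at or above 1 FPKM in a group (rows) in all 36 libraries (columns, by tissue, genotype and diet). The liver block is bright (high values) for most rows. The visWAT block is mostly dark (low values), and Sult1a1 and Sult1e1 stand out there.

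The other 19 members stayed below 1 FPKM on average in every group. No read was assigned in any library to Sult1c1, Sult2a4, Sult2a6, Sult3a2 and Ugt2a1. The highest single library was 0.896 FPKM for Sult4a1, the brain form, 0.882 for Ugt8a, the enzyme that makes galactosylceramide in myelin, and 0.716 for Sult2a2. The remaining ones reached at most 0.369 (Ugt1a2), 0.331 (Sult2a1), 0.265 (Ugt1a10), 0.243 (Sult2b1), 0.239 (Sult6b1), 0.137 (Ugt1a8), 0.105 (Sult3a1), 0.0923 (Sult2a5), 0.0678 (Ugt2a2), 0.0494 (Sult6b2) and 0.0474 (Sult2a3). The liver of WT NCD mouse 182 alone supplied 7 of the 9 reads on Sult2a1 and 11 of the 13 on Sult2a2. Sult2a2 shared 24.5% of its windows with other genes.

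Liver and visWAT were compared in the 4 WT mice on NCD. After the filter on low values (a mean of 0.5 FPKM over the libraries compared), 24 members were tested and 23 passed an adjusted p of 0.05, 21 higher and 2 lower in liver, against 65.5% of the 14544 genes tested (34.0% higher and 31.5% lower). Members present in only one of the tissues passed the filter through it and had to differ, so the count supports nothing by itself. Members such as Sult1d1, Ugt3a1, Ugt2b37 and Ugt2b38 were listed at 0 in all 4 visWAT libraries and had means of 48.5, 29.5, 2.10 and 16.1 FPKM in liver. Sult1a1 was expressed in both tissues, at 247 ± 49.0 FPKM (SD, n = 4) in liver and 107 ± 25.3 in visWAT, a difference on the log2(FPKM + 1) scale of +1.21 ± 0.20 (SE, limma adjusted p = 0.000703). That call rests on the scale, since with each library scaled to the same FPKM sum the difference was +0.57 and did not pass (adjusted p = 0.221).

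Sult1e1 and Ugt1a7c had the opposite order. Sult1e1 was at 37.2, 34.5, 8.80 and 37.7 FPKM in visWAT of the 4 mice and 0, 0.0430, 0.272 and 0.0454 in their livers, a difference of -4.62 ± 0.42 (SE). Ugt1a7c was at 2.29, 1.94, 2.14 and 1.18 in visWAT and 0.229, 0.203, 0.263 and 0.187 in liver, a difference of -1.23 ± 0.14 (SE). The tissues did not overlap for either gene. Both entered the test through their visWAT values alone, so these differences are a description and no test is drawn on. Sult5a1, whose function is poorly known, was at 1.37 in liver and 1.64 in visWAT and did not pass (adjusted p = 0.416). When each library was scaled to the same FPKM sum, the median of all genes moved by -0.56, towards visWAT. Under that scaling Sult1e1 was at -6.09 and Ugt1a7c at -2.24, so their directions stood, Sult5a1 was at -0.70 and passed (adjusted p = 0.0361), and 20 members were called higher and 3 lower.

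The first question was what HFD did to these genes in liver. In WT mice 7 of the 23 members tested passed, 6 higher and 1 lower on HFD, against 25.3% of 13330 genes (13.2% higher and 12.1% lower). In MlklAdi-KO mice 11 of 23 passed, 7 higher and 4 lower, against 22.2% of 13149 genes (11.9% higher and 10.3% lower). The median log2 difference of the tested members was +0.34 in WT and +0.27 in KO, beside -0.0010 and +0.0026 over all genes. The WT median rests in part on the liver of mouse 182, in which 16 of 22 members were below the range of the other livers of its group. Without that liver the middle one of the 23 WT differences was +0.12, that of Ugt3a1. In that fit 8 members passed in WT, 5 higher and 3 lower. Of the members called in either genotype, Ugt1a5, Ugt1a9, Ugt2b35 and Ugt2b5 fell, and every called Sult gene rose. The genotypes use different mice for this comparison, so their values are independent measurements. Ugt1a5, Ugt2a3, Sult1b1, Sult1d1 and Sult5a1 were called in both, Sult1c2 and Ugt1a6a in WT mice alone and 6 members in KO mice alone, which does not show that the genotypes differed (the interaction is given below).

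**Figure D3:**
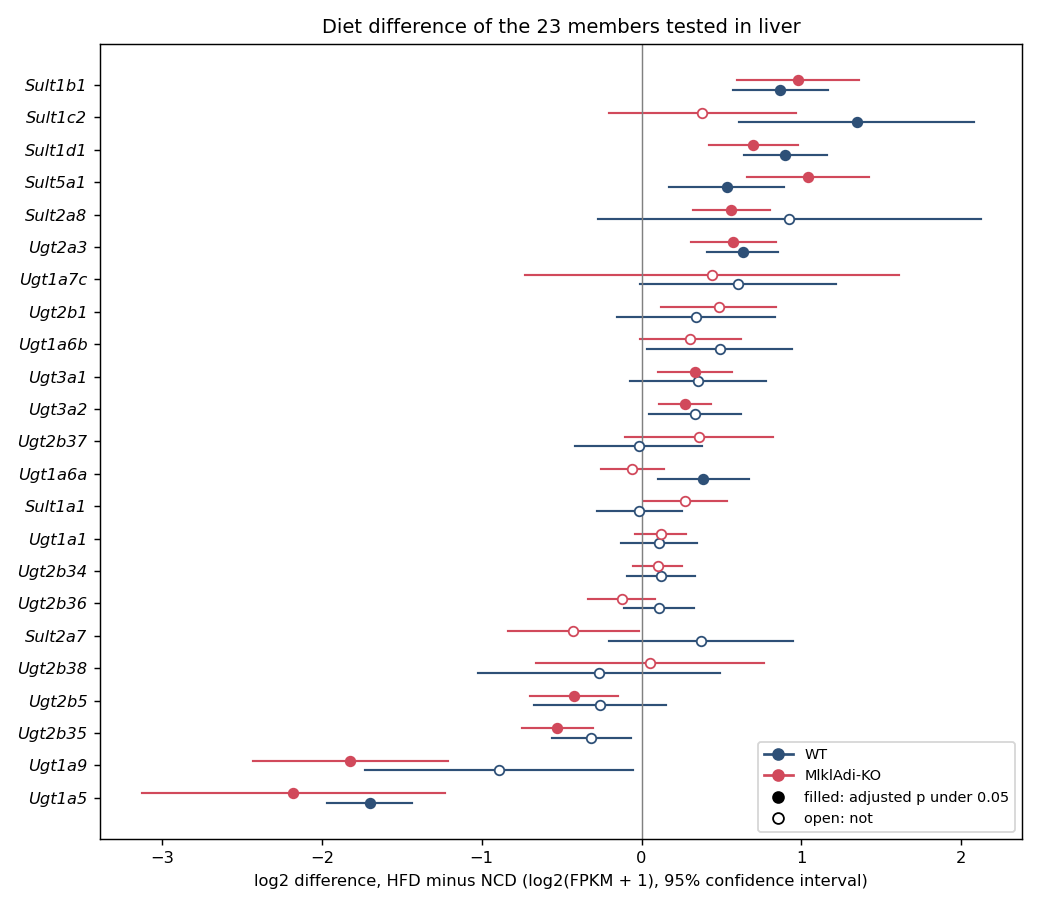
Log2 difference of HFD minus NCD in liver on log2(FPKM + 1) for the 23 members tested (vertical axis), in WT and MlklAdi-KO mice, with 95% intervals; filled points have an adjusted p under 0.05 (limma). Ugt1a5 and Ugt1a9 lie farthest to the left, and Sult1b1, Sult1d1 and Ugt2a3 lie to the right in both genotypes.

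Over the whole tissue the summed FPKM of the 43 members had means of 2241 on NCD and 2437 on HFD in WT liver, and of 2496 and 2638 in KO liver. The Sult genes together went from 515 to 670 in WT and from 526 to 732 in KO, and the Ugt genes from 1725 to 1766 and from 1971 to 1906. The WT means on NCD include mouse 182, with a sum of 1635 over all members, while the other 3 livers had 2382 to 2523. Without it the NCD means were 2442 over all members, 1893 for the Ugt genes and 549 for the Sult genes, so in WT the sum over all members no longer rose and that of the Ugt genes was lower on HFD, while that of the Sult genes stayed higher on HFD. The Ugt1a genes together went from 131 ± 8.62 to 108 ± 10.6 in WT and from 142 ± 12.7 to 106 ± 8.13 in KO. These sums weight the abundant genes most. Summed hepatocyte markers were 52063 to 60941 in WT NCD, 38415 to 43723 in WT HFD, 57559 to 62931 in KO NCD and 40810 to 50676 in KO HFD livers, with 2 of the 5 markers lower in each genotype. Summed adipocyte markers in liver were 9.41 to 26.7 on NCD and 71.1 to 106 on HFD in WT, and 7.72 to 31.5 on NCD and 12.9 to 86.9 on HFD in KO. Their part in the results was not tested.

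Among the Ugt1a genes, Ugt1a5 had the largest fall. It was at 30.8, 38.6, 32.0 and 39.1 FPKM in the WT livers on NCD and 9.67, 8.06, 9.90, 10.6 and 12.4 on HFD. In KO livers it was at 37.3, 46.5, 38.1 and 26.2 on NCD and 1.78, 12.8, 12.5, 7.40 and 7.74 on HFD. Every HFD liver was below every NCD liver, in either genotype, and the lowest was that of KO mouse 151. The log2 difference was -1.70 ± 0.12 (SE, limma adjusted p = 3.89e-05) in WT, with means of 35.1 ± 4.35 (SD, n = 4) and 10.1 ± 1.60 (SD, n = 5), and -2.18 ± 0.42 (SE, limma adjusted p = 0.00607) in KO. The exact two-sided permutation test over the mice gave p = 0.00794 in each genotype, the smallest this design allows.

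Ugt1a9, whose human counterpart acts on phenols and fatty acids, was at 21.5, 31.0, 17.1 and 27.1 FPKM in KO livers on NCD and 3.44, 11.5, 6.49, 5.04 and 5.50 on HFD, which did not overlap, a difference of -1.82 ± 0.27 (SE, limma adjusted p = 0.00168). In WT livers it was at 14.1, 19.7, 42.6 and 10.8 on NCD and 12.5, 6.41, 7.25, 14.6 and 10.4 on HFD, where the groups overlapped and the high value of 42.6 belonged to mouse 182. The WT difference of -0.89 did not pass (95% interval -1.73 to -0.05, adjusted p = 0.114), nor did it without mouse 182 (-0.51, adjusted p = 0.192).

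The other Ugt1a genes moved less. Ugt1a1, the bilirubin-conjugating enzyme, had means of 51.3 ± 7.19 and 55.2 ± 5.34 FPKM in WT livers on NCD and HFD, and 56.0 ± 4.77 and 60.9 ± 3.39 in KO livers. Its difference was +0.11 in WT (95% interval -0.13 to +0.34) and +0.12 in KO (95% interval -0.04 to +0.28), and neither passed. Ugt1a6a and Ugt1a6b conjugate planar phenols, and their first exons are nearly alike, so a split of reads between them is uncertain. Ugt1a6a was at 2.34, 3.36, 1.97 and 2.39 FPKM on NCD and 3.14, 2.91, 4.35, 3.74 and 3.78 on HFD in WT livers, overlapping groups with a difference of +0.39 ± 0.13 (SE, limma adjusted p = 0.0493). That call was lost in 9 of the alternative settings (adjusted p = 0.0557 to 0.107), among them that without mouse 182 (+0.31, adjusted p = 0.0961). In KO livers its means were 3.19 and 3.03, and Ugt1a6b had means of 20.02 and 27.4 in WT and 20.8 and 25.8 in KO, none of which passed. Ugt1a7c was low and uneven in liver, from 0.109 to 4.04 among the KO livers on HFD. In WT livers its means were 0.220 FPKM on NCD and 0.985 on HFD, so it passed the filter only through its HFD values. Its WT diet difference of +0.61 did not pass with limma (adjusted p = 0.138). That difference is a description, and no test is drawn on.

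The UGT2 genes of chromosome 5 divided. Ugt2a3 rose, while Ugt2b35 and Ugt2b5 were lower on HFD and most others were not called. Ugt2a3, whose human counterpart conjugates bile acids, was at 115, 131, 93.4 and 102 FPKM in WT livers on NCD and 161, 191, 167, 159.5 and 175 on HFD. In KO livers it was at 125, 135, 144 and 124 on NCD and 221, 152, 193, 234 and 193 on HFD. The diets did not overlap in either genotype, and the differences were +0.63 ± 0.10 (SE, limma adjusted p = 0.00187) in WT and +0.58 ± 0.12 (SE, limma adjusted p = 0.00778) in KO.

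Ugt2b35 was at 115, 101, 103 and 119 FPKM in KO livers on NCD and 89.1, 69.5, 70.2, 83.9 and 67.0 on HFD, without overlap, a difference of -0.53 ± 0.10 (SE, limma adjusted p = 0.00535). In WT livers it was at 100.03, 90.7, 66.3 and 87.3 on NCD and 67.1, 73.0, 69.0, 71.1 and 61.7 on HFD, and the lowest NCD value was again that of mouse 182. The WT difference of -0.31 did not pass (adjusted p = 0.0633) and was -0.43 without mouse 182 (adjusted p = 0.00175). Ugt2b5 followed the same order. It was at 605, 504, 652 and 770.3 on NCD and 541, 426, 452, 486 and 436 on HFD in KO livers, overlapping by one mouse on each side, with a difference of -0.42 ± 0.12 (SE, limma adjusted p = 0.0339) that was lost in 9 alternative settings (adjusted p = 0.0561 to 0.0848). In WT livers it was at 611, 584, 309.8 and 569 on NCD and 436, 399, 419, 441 and 402 on HFD, a difference of -0.26 (adjusted p = 0.343), and -0.49 without mouse 182 (adjusted p = 0.000286). Its share of the summed FPKM of all members was 23.1% on NCD and 17.2% on HFD in WT, and 25.35% and 17.7% in KO.

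The other UGT2B genes did not pass in either genotype with all libraries and limma. Ugt2b36 had mean FPKM of 338 on NCD and 362 on HFD in WT livers, and 401 and 367 in KO livers. Ugt2b1 had 225 and 276 in WT and 209.5 and 295 in KO, where its difference of +0.48 had an adjusted p of 0.0584 with limma, 0.0488 with edgeR and 0.0125 with DESeq2. Ugt2b34 lay between 137 and 163 over the 4 group means, Ugt2b38 between 13.3 and 22.003, and Ugt2b37 between 1.64 and 2.45. Without mouse 182 the WT diet differences were +0.08 for Ugt2b1 (adjusted p = 0.597), less than 0.01 for Ugt2b36 (adjusted p = 0.991) and +0.01 for Ugt2b34 (adjusted p = 0.890). With all livers, for Ugt2b36 the 95% intervals of the diet difference ran from -0.11 to +0.33 in WT and from -0.34 to +0.09 in KO.

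The UGT3 enzymes use sugars other than glucuronic acid. The table and the reference annotation used here give the names Ugt3a1 and Ugt3a2 to opposite gene IDs, and the names of the table are kept (its Ugt3a1 is ENSMUSG00000072664 and its Ugt3a2 ENSMUSG00000049152). Ugt3a2 was at 141, 122, 149 and 144 FPKM in KO livers on NCD and 171, 164, 181, 167 and 157 on HFD, a difference of +0.27 ± 0.07 (SE, limma adjusted p = 0.0244) with no overlap, lost in 3 alternative settings (adjusted p = 0.0508 to 0.0688). Ugt3a1 was at 32.2, 28.7, 30.3 and 29.7 on NCD and 38.8, 35.9, 48.2, 38.0 and 32.0 on HFD, which overlapped, a difference of +0.33 ± 0.10 (SE, limma adjusted p = 0.0455) that was lost in 11 (adjusted p = 0.0523 to 0.135). In WT livers neither passed. Ugt3a2 was at 135, 153, 94.2 and 139 on NCD and 171, 152, 158, 177 and 154 on HFD (+0.33, adjusted p = 0.0894), and Ugt3a1 had means of 29.5 and 36.7 (+0.35, adjusted p = 0.203). Mouse 182 was the lowest of the WT NCD livers for both, and without it the differences were +0.19 for Ugt3a2 (adjusted p = 0.0694) and +0.12 for Ugt3a1 (adjusted p = 0.161).

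**Figure D4:**
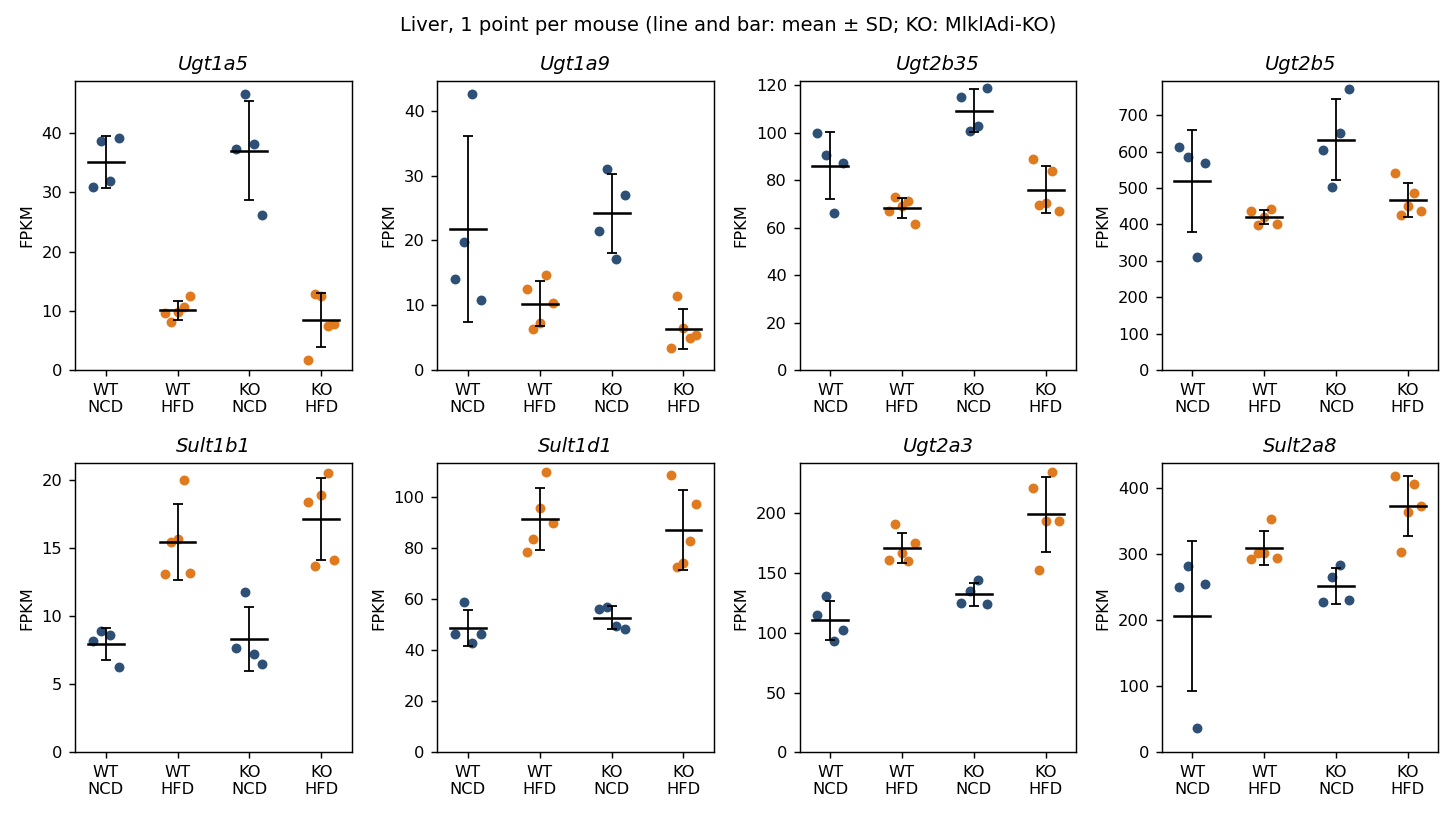
FPKM in each liver for 8 members (vertical axis, one panel per gene) in the 4 groups of mice, with the mean and SD of each group. Ugt1a5 is lower and Sult1b1, Sult1d1 and Ugt2a3 are higher in every HFD liver than in every NCD liver of the same genotype, and the lowest NCD point of Sult2a8 and Ugt2b5 is WT mouse 182.

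The Sult1 genes that passed in liver were all higher on HFD. Sult1b1, which sulfates thyroid hormone, was at 8.20, 8.89, 8.63 and 6.29 FPKM in WT livers on NCD and 13.1, 15.4, 15.7, 20.01 and 13.2 on HFD. In KO livers it was at 7.70, 11.8, 7.25 and 6.52 on NCD and 18.4, 13.7, 19.0, 20.5 and 14.2 on HFD. Every HFD liver lay above every NCD liver, and the differences were +0.87 ± 0.13 (SE, limma adjusted p = 0.00167) and +0.98 ± 0.17 (SE, limma adjusted p = 0.00348). Sult1d1, which sulfates catecholamines in mice, was at 46.3, 58.7, 42.8 and 46.4 on NCD and 78.3, 83.6, 95.6, 109.7 and 89.8 on HFD in WT livers. In KO livers it was at 56.2, 57.0, 49.4 and 48.2 on NCD and 109, 72.4, 74.1, 82.7 and 97.4 on HFD. Its diets did not overlap either, with differences of +0.90 ± 0.12 (SE, limma adjusted p = 0.000666) and +0.70 ± 0.12 (SE, limma adjusted p = 0.00405). The neighbouring Sult1e1 was close to 0 in liver, with means of 0.0901 and 0.580 FPKM in WT on NCD and HFD.

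Sult1a1, the most abundant Sult1 gene of the liver, did not pass. Its group means were 247 ± 49.0 FPKM (SD, n = 4) on NCD and 242 ± 17.8 (SD, n = 5) on HFD in WT, and 206 ± 41.0 and 246 ± 14.5 in KO, with differences of -0.01 (95% interval -0.28 to +0.25) and +0.27 (95% interval +0.01 to +0.53, adjusted p = 0.124). Sult5a1 was at 1.01, 0.858, 1.28 and 0.417 FPKM in KO livers on NCD and 2.73, 1.91, 3.27, 2.66 and 3.92 on HFD, without overlap, a difference of +1.04 ± 0.17 (SE, limma adjusted p = 0.00260). In WT livers it was at 1.08, 1.61, 1.09 and 1.68 on NCD and 2.26, 2.45, 1.43, 2.97 and 3.16 on HFD, which overlapped, a difference of +0.53 ± 0.16 (SE, limma adjusted p = 0.0377) that was lost in 8 alternative settings (adjusted p = 0.0512 to 0.0947), among them that without mouse 182 (+0.48, adjusted p = 0.0725).

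Sult1c2 was called in WT livers, with 1 library far above the rest in each of 2 groups. It was at 1.74, 1.56, 2.38 and 2.11 FPKM on NCD and 4.48, 17.0, 5.04, 5.57 and 4.82 on HFD in WT livers, a difference of +1.35 ± 0.33 (SE, limma adjusted p = 0.0153). The value of 17.0 belongs to mouse 155, whose cholangiocyte markers summed to 44.6, of which Krt19 was 36.2. Without that mouse the difference was +1.03 (adjusted p = 0.000520), and the groups did not overlap with or without it. In KO livers Sult1c2 was at 7.498, 2.37, 3.15 and 2.48 on NCD and 5.14, 5.33, 6.19, 4.60 and 3.44 on HFD. The value of 7.498 belongs to mouse 166, whose cholangiocyte markers summed to 20.9, of which Krt19 was 15.2. The KO difference of +0.38 (adjusted p = 0.332) became +0.68 without that mouse (adjusted p = 0.0169).

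Of the Sult2a genes, which sulfate hydroxysteroids and bile acids, Sult2a8 and Sult2a7 were expressed above 1 FPKM. Sult2a8, the main bile acid sulfotransferase of mouse liver, was at 228, 265, 283 and 231 FPKM in KO livers on NCD and 418, 303, 363, 406 and 373 on HFD, without overlap, a difference of +0.56 ± 0.11 (SE, limma adjusted p = 0.00567). That call was lost when the spread was estimated from all 18 livers (adjusted p = 0.333). In WT livers it was at 250.04, 282, 37.5 and 255 on NCD and 293, 301, 302, 354 and 295 on HFD, also without overlap. The value of 37.5 is that of mouse 182, and the WT difference of +0.93 (adjusted p = 0.238) became +0.23 without it (adjusted p = 0.0446). Sult2a7 had means of 1.28 and 1.92 in WT and 2.67 and 1.71 in KO and did not pass in either.

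The liver of WT NCD mouse 182 differed from the other 3 of its group across the family. Of 22 members, 16 were below, 3 above and 3 within the range of the other 3 livers. Besides Sult2a8 and Ugt2b5, Ugt2b1 was low (125 against 255 to 263 FPKM), while Ugt1a9 (42.6 against 10.8 to 19.7) and Sult1a1 (319 against 210 to 237) were high. Slco1a1, an organic anion transporter of hepatocytes, was at 1.47 FPKM there and 117 to 136 in the other 3.

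The second question was whether the deletion in adipocytes changed these genes in liver. On HFD, 0 of 23 members passed with limma, against 0.197% of 13215 genes. At an unadjusted p under 0.05 there were 3 with limma, 5 with edgeR and 6 with DESeq2. Over all genes there were 1664 of 13215 (limma), 1678 of 13215 (edgeR) and 1668 of 13157 (DESeq2). Among the members the lowest adjusted p was 0.284 (limma), that of Sult2a8. Sult2a8 had 418, 303, 363, 406 and 373 FPKM in KO and 293, 301, 302, 354 and 295 in WT livers, a difference of +0.27 (95% interval +0.06 to +0.47). The others with an unadjusted p under 0.05 in limma were Ugt2b34 (+0.14, 95% interval +0.02 to +0.26) and Ugt1a9 (-0.63, 95% interval -1.25 to -0.02). For Ugt1a5 the difference was -0.42 (95% interval -1.26 to +0.41). These comparisons use the same HFD libraries as the diet comparisons.

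On NCD, 0 of 22 members passed with limma, against 0.00758% of 13193 genes. Unadjusted p values under 0.05 were found for 3 with limma, 4 with edgeR and 4 with DESeq2. Over all genes there were 574 of 13193 (limma), 608 of 13193 (edgeR) and 586 of 13093 (DESeq2). Among the members the lowest adjusted p was 0.996 (limma). Ugt2b35 did not overlap between the genotypes, with 115, 101, 103 and 119 FPKM in KO and 100.03, 90.7, 66.3 and 87.3 in WT livers, a difference of +0.35 (95% interval +0.06 to +0.64), which was +0.23 without WT mouse 182 (limma, adjusted p = 0.787). Sult2a7 (+0.71, 95% interval +0.13 to +1.30) and Ugt2a3 (+0.26, 95% interval +0.01 to +0.52) were the others. Without WT mouse 182 these differences were +0.49 and +0.19 (limma, adjusted p = 0.851 and 0.892). The interaction, which asks whether the diet difference itself differed between the genotypes, passed for 0 of 23 members with limma, against 0.0151% of genes. Over all genes an unadjusted p under 0.05 was found for 811 of 13248 (limma), 847 of 13248 (edgeR) and 815 of 13184 (DESeq2). Among the members there were 3 with limma, 4 with edgeR and 4 with DESeq2. The lowest adjusted p was 0.560 (limma), for Ugt1a6a, with an interaction of -0.44 ± 0.16 (SE), a smaller diet difference in KO than in WT. For Ugt1a9 the interaction was -0.93 ± 0.49 (SE, limma adjusted p = 0.881) and for Sult1c2 -0.97 (limma, adjusted p = 0.808).

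In visWAT the diet was set against a tissue that itself changed. Summed macrophage markers were 154 to 245 FPKM in WT NCD, 1637 to 2415 in WT HFD, 208 to 372 in KO NCD and 599 to 2176 in KO HFD, and 6 of 6 macrophage markers rose in each genotype. Fibroblast and progenitor markers rose for 4 of 4 in WT and 2 of 4 in KO. Of 6 adipocyte markers, 1 rose and 3 fell in WT, and 2 rose and 1 fell in KO. The summed level of all 43 members was 145 on NCD and 90.4 on HFD in WT, and 153 and 103 in KO. In WT mice 3 of the 6 members tested passed, 2 higher and 1 lower on HFD, against 37.8% of 14161 genes (21.9% higher and 15.8% lower). In KO mice 2 of 8 passed, 1 higher and 1 lower, against 43.7% of 14026 genes (23.3% higher and 20.3% lower). Of these 8, Ugt2b5 and Ugt2b36 passed the filter only through HFD mouse 156, whose visWAT held hepatocyte RNA. They were at 5.20 and 4.33 FPKM there and at most 0.168 and 0.121 in the rest of its group. With 6 and 8 members tested, these counts say little beside the shares over all genes. Ugt3a2, called higher in both genotypes, entered these tests through its HFD values alone. The part of the change in cell types in these values was not tested.

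Sult1e1, which sulfates oestrogens, fell on HFD in KO mice, and in WT mice its call turned on 1 library. It was at 37.9, 43.2, 33.7 and 36.4 FPKM in KO visWAT on NCD and 16.4, 12.7, 8.27, 9.88 and 6.97 on HFD. In WT visWAT it was at 37.2, 34.5, 8.80 and 37.7 on NCD and 25.5, 10.5, 11.9, 16.2 and 11.7 on HFD. The KO groups did not overlap, with a difference of -1.76 ± 0.21 (SE, limma adjusted p = 0.000462). The WT groups overlapped through one library, the one labelled WT NCD mouse 182 at 8.80, the library whose Mlkl was within the KO range. The WT difference of -0.80 did not pass (95% interval -1.77 to +0.17, adjusted p = 0.173). It was -1.28 without that library (limma, adjusted p = 0.00417) and -1.26 without both mice 182 and 183 (adjusted p = 0.00939), and DESeq2 called it with all libraries (adjusted p = 0.0302).

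Sult1a1, the most abundant member in adipose tissue, was also lower in WT mice. It was at 102, 143, 87.1 and 94.1 FPKM on NCD and 67.4, 52.5, 68.2, 72.9 and 60.0 on HFD, without overlap, a difference of -0.71 ± 0.16 (SE, limma adjusted p = 0.00689). In KO mice it was at 109.9, 99.5, 90.01 and 116 on NCD and 88.5, 51.4, 57.4, 98.1 and 94.1 on HFD, which overlapped, and the difference of -0.45 did not pass (adjusted p = 0.102). The WT difference was -0.91 without mice 182 and 183 (adjusted p = 0.00251). Scaling each library to the same FPKM sum moved the median of all genes in the WT diet comparison to +0.42, and Sult1a1 was then at -0.23 (adjusted p = 0.594), or -0.66 relative to that median.

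Ugt1a7c and Ugt3a2 were higher on HFD in WT visWAT. Ugt3a2 was below 0.5 FPKM on average on NCD in both genotypes and passed the filter only through its HFD values. Its differences are therefore a description, and no test is drawn on for it. Ugt1a7c was at 2.29, 1.94, 2.14 and 1.18 FPKM on NCD and 4.85, 4.02, 3.34, 3.34 and 3.39 on HFD, without overlap, a difference of +0.74 ± 0.14 (SE, limma adjusted p = 0.00271). In KO visWAT it was at 2.03, 2.70, 2.62 and 3.16 on NCD and 2.51, 4.08, 2.97, 2.09 and 2.21 on HFD, overlapping, with a difference of +0.04 (95% interval -0.30 to +0.38) whose sign turned when KO NCD mouse 166 (-0.04) or KO HFD mouse 152 (-0.07) was left out. Ugt3a2 was at 0.326, 0.321, 0.595 and 0.179 on NCD and 0.946, 1.16, 1.18, 1.27 and 1.09 on HFD in WT, and 0.325, 0.283, 0.407 and 0.467 on NCD and 1.27, 1.18, 0.875, 3.06 and 1.30 on HFD in KO. Every HFD library was above every NCD library for Ugt3a2, with differences of +0.66 ± 0.10 (SE) in WT and +0.84 ± 0.20 (SE) in KO. The value of 3.06 belongs to KO HFD mouse 156, whose visWAT held hepatocyte RNA, and the KO difference was +0.65 without it. Without WT mice 182 and 183 the WT differences were +0.61 for Ugt1a7c (limma, adjusted p = 0.00540) and +0.68 for Ugt3a2. Relative to the shifted median under the other scaling, the WT differences were +0.91 for Ugt1a7c and +1.03 for Ugt3a2.

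**Figure D5:**
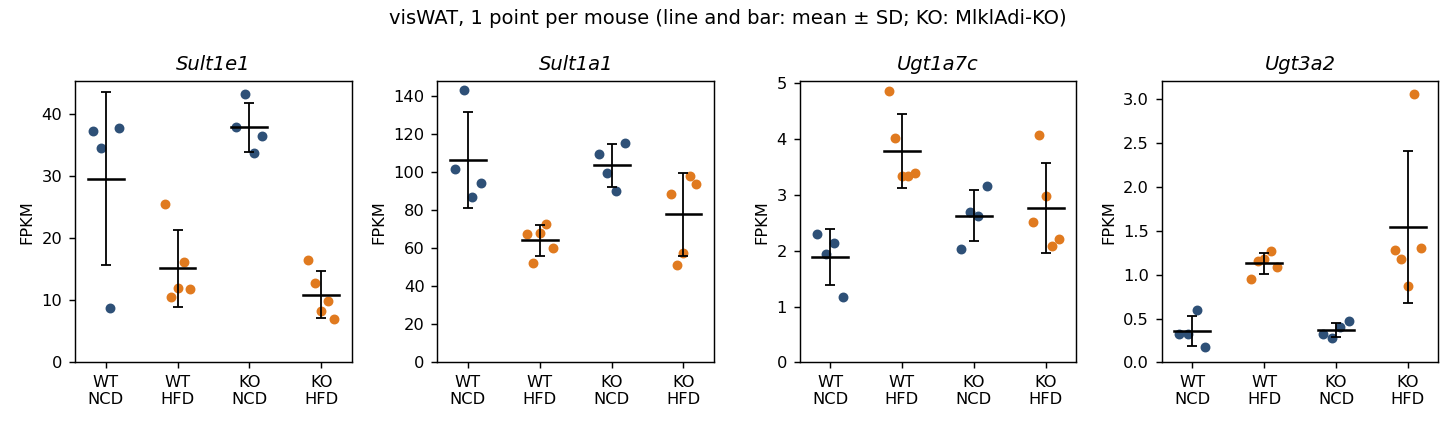
FPKM in each visWAT library for Sult1e1, Sult1a1, Ugt1a7c and Ugt3a2 (vertical axis, one panel per gene) in the 4 groups of mice, with the mean and SD of each group. Sult1e1 is below 26 FPKM in every HFD library and at 33.7 or more in every NCD library except the one labelled WT NCD mouse 182, and the single high Ugt3a2 point is KO HFD mouse 156.

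Ugt1a6b and Sult5a1 did not pass for diet in visWAT with all libraries. Ugt1a6b had means of 3.47 and 2.38 FPKM in WT and 4.49 and 3.26 in KO (adjusted p = 0.0867 and 0.138, limma). Without both WT mice 182 and 183 its WT difference was -0.60 and passed (limma, adjusted p = 0.00985). Without mouse 182 alone it was -0.38 and did not pass (limma, adjusted p = 0.133). Sult5a1 had means of 1.64 and 1.63 in WT and 1.78 and 1.35 in KO. Several liver members were seen in the visWAT of KO HFD mouse 156. The 12 members at 10 FPKM or more in its liver and under 0.5 in the other visWAT libraries of its group were at 0.530% to 1.30% (median 0.791%) of their liver level, beside 1.43% for the hepatocyte markers. Ugt2b5 was at 5.20 FPKM there and 0 to 0.168 in the other 4 libraries.

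Between genotypes in visWAT, where the deletion acts, no member was called. On HFD 0 of 9 passed with limma, against 0.0215% of genes. At an unadjusted p under 0.05 there was 1 with limma, 1 with edgeR and 2 with DESeq2. Over all genes there were 3003 of 13963 (limma), 2998 of 13963 (edgeR) and 3326 of 13842 (DESeq2). The 9 include Ugt2b5 and Ugt2b36, which passed the filter only through KO HFD mouse 156. The lowest adjusted p was 0.221 (limma), for Ugt1a7c, at 2.51, 4.08, 2.97, 2.09 and 2.21 FPKM in KO and 4.85, 4.02, 3.34, 3.34 and 3.39 in WT, a difference of -0.36 (95% interval -0.67 to -0.05). Sult1e1 differed by -0.43 (95% interval -1.02 to +0.15) on HFD. On NCD 0 of 5 passed, against 0% of genes, with 0 unadjusted p values under 0.05 by limma, edgeR and DESeq2. Over all genes there were 528 of 14063 (limma), 624 of 14063 (edgeR) and 673 of 13691 (DESeq2). Ugt1a7c was at +0.34 on NCD (limma, adjusted p = 0.916). The interaction passed for 0 of 6 members, against 0% of genes. Over all genes an unadjusted p under 0.05 was found for 1867 of 14136 (limma), 2068 of 14136 (edgeR) and 2217 of 13862 (DESeq2). Among the members there was 1 by each of the 3 tools. In the limma test this was Ugt1a7c, with an interaction of -0.70 ± 0.21 (SE, limma adjusted p = 0.325), a 95% interval -1.15 to -0.24 and an unadjusted p of 0.00502. Without visWAT library 182 it was -0.74 (limma, adjusted p = 0.414). For Sult1e1 the interaction was -0.96 (limma, adjusted p = 0.413) and rested partly on that library, being -0.48 without it (limma, adjusted p = 0.544).

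Genes that serve the same pathway were taken from lists of cofactor supply, deconjugation, export, regulators and target genes. The receptor target genes of other families were lower in liver on HFD for 5 of 6 in WT and 4 of 6 in KO, where 12.1% and 10.3% of all genes were called lower, with medians of -1.15 and -1.06, beside -0.0010 and +0.0026 over all genes. Cyp4a14, a fatty acid hydroxylase induced by PPARalpha, had the largest change, from 1001 ± 258 FPKM to 196 ± 42.6 in WT, a log2 difference of -2.34 with an adjusted p of 8.23e-05, and -3.26 with an adjusted p of 0.00237 in KO. The drug-metabolising Cyp2c29, Cyp2b10 and Cyp3a11 differed by -1.21, -1.20 and -1.10 in WT (adjusted p = 0.00127, 0.00843 and 0.0398) and by -1.02, -1.40 and -1.10 in KO (adjusted p = 0.000580, 0.0201 and 0.000554). Cyp1a2 was called in WT alone (-0.63 with an adjusted p of 0.0353). Nqo1, the only one of the list tested in visWAT, also fell there (-0.86 with an adjusted p of 0.000140 in WT and -0.61 with an adjusted p of 0.00100 in KO).

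The transcription factors of the regulator list went in both directions. In WT livers 3 of 11 rose and 2 fell on HFD, and in KO livers 4 rose and 1 fell, beside 25.3% and 22.2% of all genes called. Nr1i3, the receptor CAR that governs many conjugating enzymes, went from 8.17 ± 3.47 to 22.4 ± 6.06 FPKM in WT livers, a difference of +1.42 with an adjusted p of 0.0109, and +0.98 with an adjusted p of 0.00154 in KO. Mouse 182 was the lowest of the WT NCD livers, at 3.12 FPKM against 8.74 to 10.7, so the WT difference of Nr1i3 rests in part on that liver. Nr1h4 (the bile acid receptor FXR) and Ppara also rose in both, by +0.98 and +0.68 in WT (adjusted p = 0.00147 and 0.0264) and +0.76 and +0.89 in KO (adjusted p = 0.000940 and 0.0132). The aryl hydrocarbon receptor gene Ahr fell (-0.63 with an adjusted p of 0.00649 in WT and -0.47 with an adjusted p of 0.0110 in KO). In visWAT 1 of 7 rose (Nfe2l2) and 1 fell (Rxra) in WT, and 3 fell in KO, where 37.8% and 43.7% of all genes were called.

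The genes of cofactor supply went in both directions. In liver 2 of 10 rose and 2 fell in WT and 2 rose and 1 fell in KO, and in visWAT 2 of 9 rose and 3 fell in WT and 1 rose and 4 fell in KO. Over all genes 25.3% and 22.2% were called in liver and 37.8% and 43.7% in visWAT. Ugp2, which makes UDP-glucose, rose in liver (+0.68 with an adjusted p of 0.00643 in WT and +0.36 with an adjusted p of 0.0148 in KO) and fell in visWAT (-0.62 with an adjusted p of 0.0140 and -0.44 with an adjusted p of 0.00507). WT NCD mouse 182 stood apart for Ugp2, at 94.4 FPKM in liver (139 to 157 in the others) and 49.1 in visWAT (27.0 to 28.8). The WT differences of Ugp2 rest in part on these libraries. Papss1, which makes PAPS, fell in both livers (-0.38 with an adjusted p of 0.0178 and -0.41 with an adjusted p of 0.0362), and Ugdh, which makes UDP-glucuronate, fell in WT livers (-0.53 with an adjusted p of 0.0443). The Ugdh call is near the threshold and rests in part on the NCD liver of mouse 182, at 69.3 FPKM against 37.8 to 39.9 in the others. The sulfate transporter gene Slc26a1 rose in both livers (+0.43 with an adjusted p of 0.00283 and +0.85 with an adjusted p of 0.000497).

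Of the genes that undo conjugation, 4 of the 5 tested rose in visWAT of WT mice, where 21.9% of all genes rose, and in KO 1 rose and 1 fell, beside 23.3% and 20.3%. Gusb, the lysosomal beta-glucuronidase, went from 12.8 ± 3.23 to 62.2 ± 8.49 FPKM in WT, a log2 difference of +2.21 with an adjusted p of 6.37e-06, and from 12.2 ± 1.44 to 44.5 ± 18.4 in KO, a difference of +1.69 with an adjusted p of 0.00161. Macrophage markers rose in the same comparisons, and their part was not tested. In liver 1 of 5 rose in WT and 1 fell in KO, beside 25.3% and 22.2% of all genes called. The 6 exporters had adjusted p values (limma) of 0.108 to 0.729 in WT livers. In KO livers 1 rose (Slco1b2) and 1 fell (Abcc4), beside 22.2% of all genes called. In WT visWAT Abcc3 rose (+1.29 with a limma adjusted p of 7.33e-05) and Abcc4 fell, of 3 tested, beside 37.8% of all genes called. In KO visWAT the 3 had adjusted p values (limma) of 0.0813 to 0.642, where 43.7% of all genes were called. None of the genes of these 5 lists was called between genotypes or for the interaction in either tissue.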

How the data were processed

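Polyadenylated RNA of visWAT and liver from the same 18 mice was sequenced. Per the paper's methods and the submitters' processing notes, the authors trimmed reads with fastp, aligned them to mm39 with HISAT2 and counted them per gene with featureCounts 1.5.0-p3. Strandedness, the annotation release and the treatment of reads that match several genes are not given in the sources used here. The deposited table holds FPKM per gene and library, which the authors computed from read counts, gene length and a total for each library. The deposited read counts, given for the genes the authors list in each genotype comparison, set the total behind each library's FPKM (from genes with at least 20 reads), and reads recovered with it were whole for 100% of values (within 0.01 of a read). Relative to the reads on genes, the total behind the FPKM was 0.737 to 0.812 in liver and 1.01 to 1.40 in visWAT, so levels in the tissues are not on one scale of reads. The authors' fold changes, p-values and pathway tables, and 72 other columns of per-sample values, were not used.

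Genes whose FPKM averaged 0.5 or more in the compared libraries were tested with limma 3.58.1 (R 4.3.3) on log2(FPKM + 1), with a mean-variance trend and Benjamini-Hochberg adjustment over all genes tested. The threshold was an adjusted p of 0.05. Log2 differences are on the log2(FPKM + 1) scale, which understates changes of low genes. Each fit held the groups compared, and the interaction held all 18 libraries of a tissue. Alternatives were a pseudocount of 0.1, no filter or a filter of 1 FPKM, equal FPKM sums, edgeR 4.0.16 (quasi-likelihood, TMM) and DESeq2 1.42.0 on recovered reads, all 18 libraries in the fit and each library left out. The scripts were tested on simulated data. Intervals are 95% intervals of limma. Depth was 20875463 to 30322171 reads on genes per library. Samples were grouped by tissue, genotype and diet from the labels, and mice are the replicates. Replicates differ as animals, and the same mouse gave both tissues; the correlation of its deviations from the group means in the 2 tissues was -0.066 to 0.237 over 11489 genes.

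The members and the gene lists were chosen with earlier results of these data known. Members were named with values when their mean reached 1 FPKM in a group, and per-mouse values are given for those called in a diet or genotype comparison and for a few others beside them, in the order of mouse number. Sequences and coordinates come from GRCm39 and RefSeq.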

Additional observations from a re-analysis of the deposited data

Results flagged for a closer look

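Dixon's test was run on the 111 combinations of a member and a group with a mean of at least 1 FPKM. In 15 of them, 1 of the 4 or 5 mice was farther from the others than the test allows. For a single combination chance gives about 1 in 20. Members share libraries, so the combinations are not independent and 15 of 111 cannot be read against that rate. The liver of WT NCD mouse 182 accounts for 6 of the 15. There Sult2a8 was at 37.5 FPKM (250.04 to 282 in the other 3 livers), Ugt2b5 at 309.8 (569 to 611), Ugt2b1 at 125 (255 to 263), Ugt2b34 at 108 (144 to 151), Ugt2b36 at 269 (354 to 367) and Ugt3a1 at 17.0 (32.3 to 35.2). Macrophage, fibroblast and cholangiocyte markers were high in the same liver. Its summed hepatocyte markers were not low, at 60941 against 52063 to 59953 in the other 3 livers. The part of these cell types was not tested.

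In visWAT, Sult1e1 was at 8.80 FPKM in the library labelled WT NCD mouse 182, against 34.5 to 37.7 in the other 3. Ugt2b5 was at 5.20 (0 to 0.168 in the others) and Ugt3a2 at 3.06 (0.875 to 1.30) in KO HFD mouse 156, whose visWAT held hepatocyte markers at 1.43% of its liver. Ugt2b5 reached a mean of 1 FPKM in that group only through mouse 156, so its flag was fixed in advance.

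Sult1c2 was at 17.0 FPKM in the liver of WT HFD mouse 155 (4.48 to 5.57 in the others) and at 7.498 in that of KO NCD mouse 166 (2.37 to 3.15). Cholangiocyte markers other than Sox9 were high in both livers, as was the mesothelium sum, which shares Krt19 with them. Their part was not tested. WT HFD mouse 162 was high for Sult2a8 (354, others 293 to 302) and Ugt2b36 (396, others 348 to 360). WT HFD mouse 164 was low for Ugt3a1 (33.0, others 37.2 to 38.2), and KO NCD mouse 197 was high for Ugt2b1 (264, others 187 to 195).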

How the results depend on the processing

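The number of members called for diet in WT liver was 7, and it was 5 to 8 with one library left out and 6 to 9 under the other alternatives. In KO liver it was 11, with 8 to 11 and 7 to 12, the 7 coming from the fit with the spread of all 18 livers. In WT visWAT it was 3, with 3 to 4 and 2 to 5, and it was 5 with no filter, 5 with DESeq2 and 5 without both mice 182 and 183. In KO visWAT it was 2, with 2 to 3 in both cases. Liver against visWAT gave 23, with 22 to 23 and 21 to 25, and the genotype and interaction counts were 0 under every alternative run. With the mouse as a replicate block (paired), liver against visWAT also gave 23. Of 739 values of single members under an alternative, 683 kept their direction and side of the threshold, 42 no longer passed, 12 newly passed and 2 changed sign. Both of these are Ugt1a7c for diet in KO visWAT, which ran from -0.072 to +0.11 with one library left out. The cause of these shifts was not tested, beyond what the construction of a setting shows.

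The fall of Ugt1a5 in liver was called with every library left out (-1.77 to -1.63 in WT and -2.36 to -1.79 in KO), as was that of Ugt1a9 in KO (-2.03 to -1.66). With 4 or 5 mice a group, a member with a wide interval may have changed without a call. Most members below 1 FPKM did not pass the filter and were not tested. Shared exons limit the Ugt1a levels, and near-identical sequences limit Ugt1a6a, Ugt1a6b, Ugt2b5 and Ugt2b38.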
